A study of Mus musculus with 75 samples.

Results

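The effect of losing Gpr37 in mice that received no endotoxin was measured in 19 of the 75 libraries of the series, each the RNA-seq library of 1 gut region of 1 mouse. The knockout group carried Gpr37-/- and the wild-type group carried Gpr37WT, and every mouse of both groups also carried the same eGFP reporter transgene, which makes a green fluorescent protein. All of these mice were injected once into the peritoneum with PBS (phosphate-buffered saline), and tissue was taken 24 h later from the myenteric plexus, the nerve network between the muscle layers of the gut wall. A further 18 libraries came from mice of the same genotypes given LPS (lipopolysaccharide, a bacterial endotoxin) at 2 mg/kg and also sampled after 24 h, with 5 knockout and 4 wild-type libraries of the small intestine and 4 and 5 of the colon, and all 37 were fitted together. The small intestine of the PBS mice gave 4 knockout and 6 wild-type libraries, and the colon gave 5 knockout and 4 wild-type libraries. They came from 5 knockout and 6 wild-type mice of both sexes, numbered in the labels, and 4 mice of each genotype gave both regions. The labels call the material enteric glial cells (EGC) and state neither an age nor how the cells were separated from other cells. The libraries were chosen by their column names, with each region compared on its own over all genes that passed a count filter, which were 14903 of 21076 symbols.

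Gpr37 encodes a G protein-coupled receptor that is known from oligodendrocytes and other glia, and that has also been studied as a substrate of the ubiquitin ligase parkin. Prosaposin and its fragments have been proposed as its ligands, and Gpr37l1 is its closest relative. In the gut, enteric glia surround the neurons of the myenteric plexus, buffer and sense their transmitters and, on injury or endotoxin, take on a reactive state marked by cytokines and acute-phase genes. The comparison asks which of these programmes differ with Gpr37 before any endotoxin is given. The title of the series sets that question among reactive gliosis and gut motility in inflammation.

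Library totals ran from 3555130 to 33283346 counts (median 9294049), with 12757 to 15515 genes detected and 1.66 to 26.0% of counts on mitochondrially encoded genes. A floor of 3 counts equals 0.0933 to 0.779 CPM (counts-per-million, TMM-scaled) in these libraries. This floor covers counting error only, since PCR-amplified libraries without molecular identifiers do not count molecules. Glial markers were present throughout. The 21 genes of enteric glial identity, among them Sox10 and S100b, summed to 3129 to 31649 CPM per library and none was at 0 in a whole group. Markers of other cells were present too: 12 neuronal genes summed to 182 to 3033 CPM, and 7 fibroblast genes summed to 1485 to 23610 CPM. Some libraries stood apart. Pancreatic digestive enzyme genes summed to 108460 CPM in the knockout small intestine of mouse 20 and to 71039 CPM in the wild-type colon of mouse 19, against at most 956 CPM in the other 17. Epithelial markers summed to 8864 CPM in the knockout colon of mouse 20. The mice numbered 10 and below, which earlier work on these data set apart, gave 4 libraries, 3 of them knockout (the small intestine of mouse 7 and the colon of mice 1 and 7) and 1 wild type (the small intestine of mouse 9).

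Gpr37 itself followed the labels. In the small intestine, the wild-type libraries held 128, 92, 59, 86, 129 and 158 counts of Gpr37, and the knockout libraries held 1, 2, 2 and 0. In the colon, the wild-type libraries held 110, 39, 97 and 33 counts, and the knockout libraries held 0, 9, 0, 0 and 1. The groups did not overlap in either region. Wild-type levels were 11.8 ± 4.75 CPM (SD, n = 6) in small intestine and 6.09 ± 4.86 CPM (SD, n = 4) in colon. Summed over libraries, the small intestine held 5 counts of Gpr37 in the knockout and 652 in the wild type, a ratio of 135 per unit of TMM-scaled depth (exact 95% interval 57.6 to 417, which covers counting error only and not the spread between mice). In the knockout colon it averaged 0.206 ± 0.348 CPM (SD, n = 5), most of it from the 9 counts of mouse 15. The log2 fold change, knockout minus wild type, was −6.92 ± 1.65 (SE) for the small intestine and −4.71 ± 1.39 for the colon. Gpr37 did not pass in either region alone (adjusted p = 0.961 and 1, by the quasi-likelihood test of edgeR). The targeted gene itself thus stayed above the threshold in the regional edgeR test. DESeq2 gave Gpr37 an adjusted p of 5.49e-05 for the small intestine and 0.0416 for the colon. Averaged over both regions with the mouse kept as a block, Gpr37 fell by 5.71 on the log2 scale (limma-voom, adjusted p = 0.000269).

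Across the genome, few differences between the genotypes exceeded the spread between mice. Small intestine and colon each had 0 of 14903 genes (0%) called by edgeR at an adjusted p under 0.05. At an unadjusted p under 0.05 the small intestine had 256 genes (1.72%), 103 higher and 153 lower in the knockout. The colon had 629 (4.22%), 364 higher and 265 lower. DESeq2 called 58 genes for the small intestine and 74 for the colon. Of those 58, 11 were pancreatic enzyme genes and 3 had groups that did not overlap, namely Arf5, Casp9 and Gpr37. Of the 74 of the colon, 16 had groups that did not overlap. Over all genes of the small intestine, groups did not overlap in 0.517% (higher in the knockout) and 0.678% (lower). For the colon these shares were 0.51% and 0.866%. The test of whether the knockout difference itself differed between regions also called 0 genes in edgeR (0%), with 507 at an unadjusted p under 0.05 (3.4%; 2.46% with the more positive difference in the colon and 0.946% with the more negative one), and 89 in DESeq2. The average over both regions, fitted with limma-voom, called 2 genes (0.0134%), Gpr37 and Arf5, and both were lower in the knockout. Of all genes, 655 reached an unadjusted p under 0.05 in the average (4.4%), 1.34% higher and 3.06% lower. These p-values measure the spread between libraries of the 24 h experiment, LPS-treated mice included, and no wider variation. edgeR and DESeq2 held no term for the mouse. With the 4 PBS groups fitted alone in edgeR, 427 genes (2.97%) of the small intestine and 849 (5.92%) of the colon reached an unadjusted p under 0.05.

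**Figure D1:**
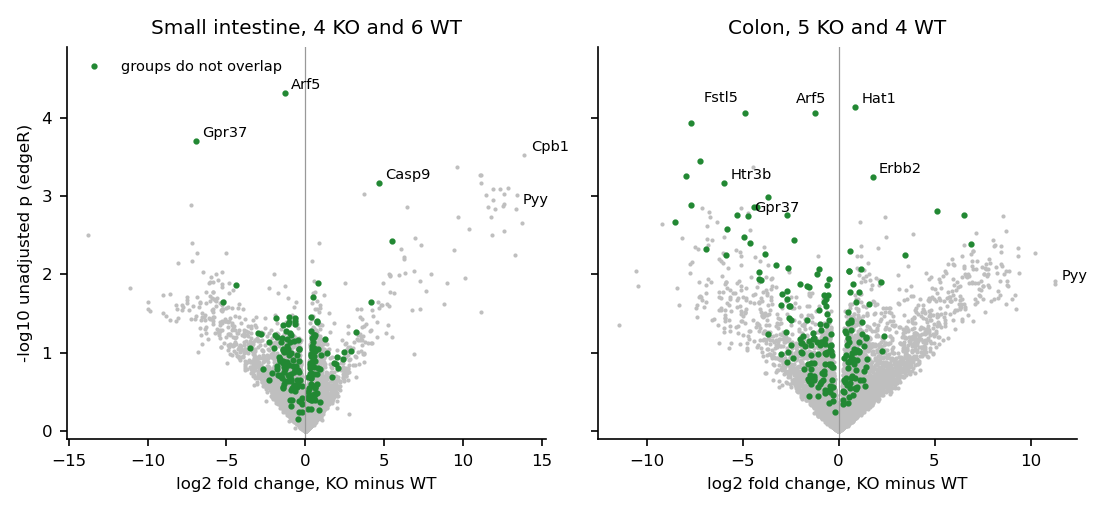
Log2 fold change (x axis, knockout minus wild type) against −log10 of the unadjusted edgeR p (y axis) for every gene tested, with the small intestine on the left and the colon on the right; green points are genes whose groups do not overlap. Arf5 stands at the top of the small intestine and beside Hat1 and Fstl5 at the top of the colon, and no gene passed the adjusted threshold in either region.

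Besides Gpr37, the gene called in the average was Arf5, which was lower in the knockout libraries of both regions. It encodes a class II ARF, a small GTPase of the secretory pathway that acts between the endoplasmic reticulum and the Golgi apparatus. Arf5 of the small intestine stood at 47.4, 48.4, 48.6 and 56.5 CPM in the knockout libraries. The 6 wild-type libraries ran from 95.1 to 172 CPM (median 115), the lowest being mouse 9 and the highest mouse 14. In the colon, Arf5 stood at 50.6, 45.8, 38.4, 67.1 and 110 CPM in the knockout (mice 12, 15, 1, 20 and 7) and at 127, 123, 189 and 146 CPM in the wild type. Every knockout library lay below every wild-type library of its region, with mouse 7 the nearest in both. Group means were 50.2 ± 4.20 against 123 ± 26.6 CPM for the small intestine (SD, n = 4 and 6) and 62.4 ± 28.7 against 146 ± 30.4 CPM for the colon (SD, n = 5 and 4).

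The log2 fold change of Arf5 was −1.29 ± 0.28 in the small intestine (unadjusted p = 4.91e-05, adjusted p = 0.731 by edgeR). For the colon it was −1.23 ± 0.28 (unadjusted p = 8.85e-05, adjusted p = 0.434 by edgeR). The difference between regions was 0.06 (edgeR unadjusted p = 0.871). DESeq2 passed Arf5 in both regions, with adjusted p = 0.00173 and 0.0164. In the average over both regions Arf5 fell by 1.35 ± 0.19 on the log2 scale (limma-voom, adjusted p = 0.000269), and over 26 alternative settings that adjusted p ran from 0.000187 to 0.00673. With each mouse reduced to 1 value, the mean of log2(CPM + 1) over its regions, the 5 knockout mice averaged 5.74 ± 0.38 and the 6 wild-type mice 6.99 ± 0.24. That difference of −1.25 is given with no test, since Arf5 is described here because it was called in these same mice. Gpr37, measured the same way, differed by −3.04.

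**Figure D2:**
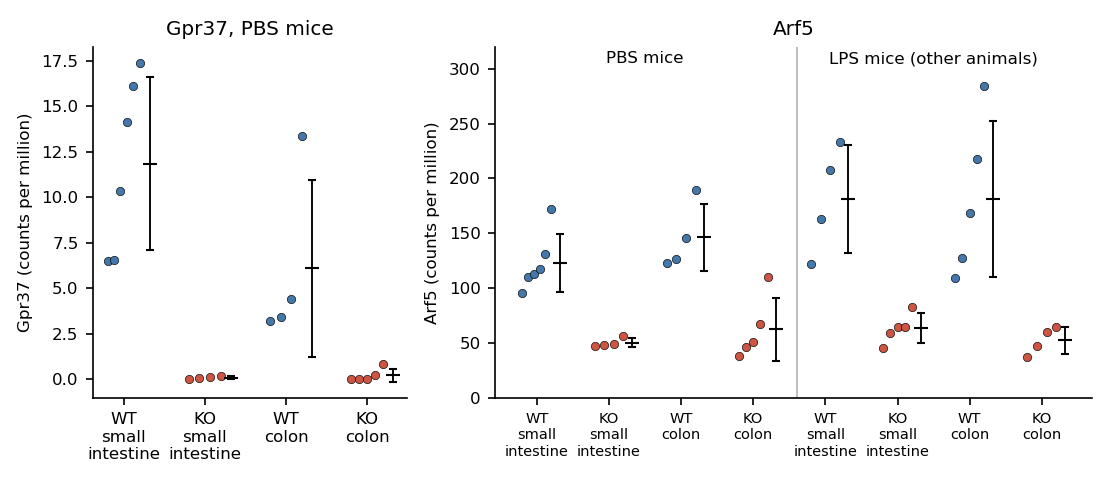
Gpr37 in the PBS libraries (left) and Arf5 in the PBS and LPS libraries (right), in CPM on the y axis, by genotype and region on the x axis; each point is 1 library and the bars are the group mean ± SD. For both genes every knockout point lies below every wild-type point of the same region and treatment, from 38.4 to 110 CPM against 95.1 to 189 CPM for Arf5 in the PBS mice.

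All 37 libraries were fitted in 1 edgeR model, so its p-values for PBS and LPS share an estimate of the spread. The mice that received LPS are other animals and share no sample with the PBS groups. Arf5 ran from 45.1 to 83.2 CPM in their knockout small intestine against 122 to 234 CPM in the wild type, and from 37.4 to 64.8 against 109 to 284 CPM in the colon. The groups did not overlap there either. The difference was −1.52 ± 0.28 on the log2 scale for the small intestine and −1.79 ± 0.29 for the colon, and edgeR passed both (adjusted p = 0.0321 and 0.00446), where it called 0.0134% and 0.429% of all genes. By mouse, 6 knockout against 5 wild-type animals differed by −1.48 (two-sided exact permutation p = 0.00433, the smallest possible). Over all 37 libraries of the 24 h experiment, 17 of 18 knockout libraries lay below the lowest wild-type library (95.1 CPM), and the exception was the PBS colon of mouse 7 at 110 CPM. Mouse 3, labelled wild type with LPS, held 0 and 2 counts of Gpr37 in its 2 libraries, which goes against its label. The wild-type LPS colon libraries of mice 5 and 8 held 0 counts as well, although the small intestine of mouse 8 held 100. In mouse 3, Arf5 stood at 234 and 284 CPM, the highest of each group. Without mouse 3 the wild-type ranges were 122 to 208 and 109 to 218 CPM. The log2 fold change was then −1.37 ± 0.29 for the small intestine, which no longer passed (edgeR adjusted p = 0.179), and −1.58 ± 0.29 for the colon, which did (adjusted p = 0.0190). By mouse, 6 against 4 animals then differed by −1.32 (exact permutation p = 0.00952, the smallest possible). Without all 4 wild-type libraries with 2 or fewer counts of Gpr37, the log2 fold change was −1.39 ± 0.27 for the small intestine and −1.51 ± 0.32 for the colon, where 2 wild-type libraries remained, and neither passed (edgeR adjusted p = 0.0635 and 0.101).

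Arf5 lies on the same chromosome as Gpr37. In the RefSeq annotation of GRCm38.p6, Gpr37 spans chr6:25668523-25689980 and Arf5 spans chr6:28423604-28426602, so the 2 genes start 2.755 Mb apart. The labels give neither the way the Gpr37-/- allele was made nor the strain background, and the part of linked sequence in the Arf5 difference was not tested. The other 80 tested genes that start within 10 Mb of Gpr37 included 4 at an unadjusted p under 0.05 for the small intestine (5%) and 3 for the colon (3.75%), against 3.16% and 4.74% of the 760 tested genes of chromosome 6. They included Arf5, Snd1, a nuclease-domain protein (log2 fold change 0.47 ± 0.23 in the small intestine, unadjusted p = 0.0472), and the pancreatic carboxypeptidase Cpa1. Among the 10 annotated genes nearest on each side of Gpr37, 3 passed the count filter. These were Tmem229a (0.10 for the small intestine and −0.67 for the colon), Pot1a, a telomere protein (−0.15 and −0.61), and the glutamate receptor gene Grm8 (−0.80 and 1.52). Their unadjusted p-values ran from 0.37 to 0.937, so no difference was detected at this depth in the genes next to the targeted locus.

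**Figure D3:**
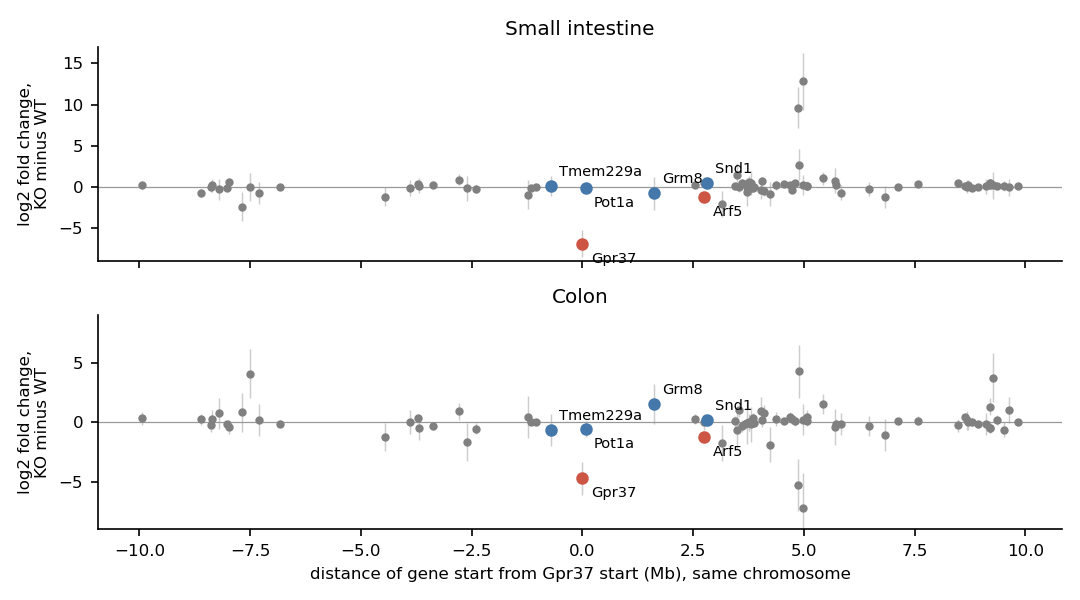
Log2 fold change, knockout minus wild type (y axis, bars are SE), of the tested genes by distance of their start from the start of Gpr37 in megabases (x axis), with the small intestine on top and the colon below; each point is 1 gene. Arf5 lies 2.755 Mb from Gpr37 at −1.29 and −1.23, the named genes nearer to Gpr37 lie around 0 with wide bars, and the points beyond 5 on the y axis near 5 Mb include Cpa1.

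The 200 bases before the first transcript start of Arf5 in the GENCODE annotation (chr6:28423360-28423559, plus strand, RefSeq sequence of GRCm38.p6) are shown because Arf5 is the one gene besides Gpr37 that was called in the average over both regions by limma-voom. Capitals mark the hexamers GGGCGG, the core of the GC box bound by Sp1-type factors, and CACGTG, the E-box core.

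Arf5 promoter: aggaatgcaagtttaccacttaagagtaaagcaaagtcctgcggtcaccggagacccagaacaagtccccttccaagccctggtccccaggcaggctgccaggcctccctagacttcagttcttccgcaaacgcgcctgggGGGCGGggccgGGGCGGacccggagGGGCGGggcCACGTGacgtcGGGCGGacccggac

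The window is 66% G and C, with 15 CpG dinucleotides, 4 GGGCGG matches, 1 CACGTG match and no TATAAA match, searched on both strands. Of 32851 RefSeq promoter windows of the same length, 31% hold GGGCGG, 5.26% hold CACGTG and 9.96% hold TATAAA. This is the reference sequence, and the alleles of these mice were not read from the counts. A match is a description of letters and says nothing of binding.

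The other ARF genes were compared after the Arf5 values had been seen. Arf1, Arf2, Arf3, Arf4 and Arf6, which share the same GTPase fold, had log2 fold changes from −0.42 (Arf3, colon) to 0.31 (Arf6, colon). None of the 5 reached an unadjusted p under 0.05 in either region, where 1.72% and 4.22% of all genes did so. The smallest p of the 5 was 0.0565 (edgeR), for Arf3 in the colon.

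Beyond Gpr37 and Arf5, 4 genes had groups that did not overlap in both regions in the same direction. They were 1 of the 14903 that was higher (0.00671%), Gpr108, and 3 of the 5 that were lower (0.0336%), Slc18a3, Dleu7 and Borcs5. Gpr108, a Golgi membrane protein, stood at 103, 102, 133 and 173 CPM in the knockout small intestine against 54.7 to 82.9 CPM (median 76.0) in the wild type. Colon libraries stood at 131, 100, 123, 144 and 99.4 CPM against 80.0, 93.8, 63.6 and 62.9 CPM. Knockout minus wild type was 0.82 ± 0.31 on the log2 scale in the small intestine, 0.67 ± 0.33 in the colon and 0.76 ± 0.21 in the average, which did not pass (limma-voom, adjusted p = 0.559).

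Slc18a3 encodes the vesicular acetylcholine transporter of cholinergic neurons. Libraries of the small intestine stood at 41.6, 54.6, 38.8 and 4.63 CPM in the knockout and at 64.8 to 134 CPM (median 80.3) in the wild type. Those of the colon stood at 6.75, 2.67, 0.121, 0.888 and 0 CPM against 21.7, 10.1, 50.5 and 17.7 CPM. The knockout mouse 7 was the lowest in both regions. The log2 fold change of Slc18a3 was −1.34 ± 0.92 for the small intestine and −3.67 ± 1.02 for the colon (edgeR unadjusted p = 0.153 and 0.00102), and the average did not pass (limma-voom, adjusted p = 0.559). Borcs5, a subunit of the lysosome-positioning BORC complex, and Dleu7 are named after their values were seen. Dleu7 stood at 4.76 to 18.7 CPM against 20.7 to 59.9 CPM in the small intestine and at 0 to 6.06 against 6.69 to 24.3 CPM in the colon. Borcs5 stood at 14.8 to 17.1 against 17.4 to 28.9 CPM and at 0.676 to 16.5 against 17.6 to 25.2 CPM, so the nearest libraries lay close together in both regions. Dleu7 averaged −3.08 ± 0.66 on the log2 scale (limma-voom, unadjusted p = 4.65e-05, adjusted p = 0.173) and Borcs5 −0.71 (unadjusted p = 0.0199).

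The log2 fold changes of most neuronal markers were negative in the knockout libraries. Neither edgeR in a region nor limma-voom in the average passed any of them, while DESeq2 passed 1, Vip in the colon. All 12 neuronal markers had negative log2 fold changes in the small intestine, with a median of −1.16 against 0.00 over all genes tested, and none reached an unadjusted p under 0.05. In an alternative fit, libraries with the same title number were taken as pairs, a pairing that the labels do not state. With these assumed pairs as a block, 3 of 12 reached that p, where 5.47% of all genes did so in either direction. With the 2 groups fitted alone 7 did (4.33% of all genes), all lower. Elavl3, Elavl4, Uchl1, Prph and Stmn2 had groups that did not overlap there, where 0.678% of all genes did so in that direction. In the colon, 10 of 12 were negative, with a median of −0.75 against 0.03, and 1, Vip, reached an unadjusted p under 0.05, where 1.78% of all genes did so in that direction. In the average over both regions, 12 of 12 were negative with a median of −1.65 against −0.02, and 9 reached an unadjusted p under 0.05, where 3.06% of all genes did so in that direction. With edgeR and no mouse block the median of the average was −0.94 and 6 reached that p, where 3.79% of all genes did so in either direction. None of the 9 was called, and the smallest adjusted p was 0.491, for Elavl4 (limma-voom). In bulk libraries, fewer cells of a type and less RNA per cell cannot be told apart. Other markers also lay to one side: in the small intestine 11 of 11 macrophage genes (median −0.79), 6 of 6 lymphocyte and plasma cell genes (−1.71), 8 of 9 epithelial genes (−3.33) and 8 of 8 mitochondrially encoded genes (−0.67) were negative. In the colon these 4 lists had positive medians, of 0.33, 3.6, 3.15 and 1.01. Endothelial genes were negative in 5 of 6 in each region (medians −0.23 and −0.45) and in 6 of 6 in the average (−0.81). Fibroblast genes were negative in 4 of 7 in the small intestine and 7 of 7 in the colon (median −0.47), and smooth muscle genes in 2 of 8 and 7 of 8 (colon median −0.45).

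Snap25, a protein of the presynaptic fusion machinery, stood at 130, 115, 90.6 and 13.0 CPM in the knockout small intestine and at 125 to 266 CPM in the wild type (median 201). The colon gave 13.8, 54.5, 24.0, 3.69 and 64.7 CPM against 102, 45.2, 111 and 63.5 CPM. The groups overlapped in both regions, by 1 library in the small intestine. Its average difference was −1.80 ± 0.50 on the log2 scale (unadjusted p = 0.00107, adjusted p = 0.559 by limma-voom). Uchl1, a ubiquitin hydrolase abundant in neurons, stood at 187, 190, 148 and 59.8 CPM against 208 to 567 CPM (median 320) in the small intestine, where the groups did not overlap. The colon gave 43.1, 90.9, 131, 18.9 and 256 CPM against 215, 89.7, 201 and 143 CPM, where the groups overlapped. Vip, the relaxing peptide transmitter of enteric motor neurons, stood at 4.15, 35.3, 21.5, 1.78 and 13.8 CPM in the knockout colon and at 386, 31.7, 1668 and 26.0 CPM in the wild type. Its colon log2 fold change was −5.10 ± 1.47 (edgeR unadjusted p = 0.00144, adjusted p by DESeq2 0.00905), and mice 14 and 22 carried most of the wild-type level.

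**Figure D4:**
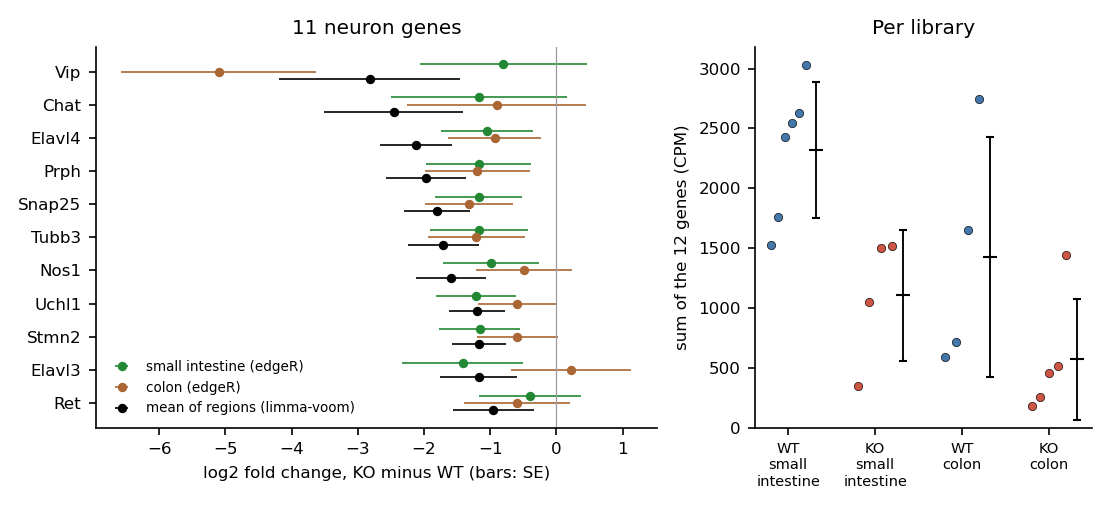
Left, log2 fold changes, knockout minus wild type (x axis, bars are SE), of 11 of the 12 neuronal markers in each region (edgeR) and in the mean of both (limma-voom); right, the summed CPM of the 12 (y axis) in each PBS library by genotype and region, with the group mean ± SD. The points lie left of 0 except Elavl3 in the colon, and the sums in the small intestine are 349 to 1519 CPM in the knockout and 1523 to 3033 CPM in the wild type.

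Summed over the 12 genes, the neuronal markers separated the genotypes in the small intestine and not in the colon. For the small intestine the sum was 349, 1054, 1499 and 1519 CPM in the knockout and 1523 to 3033 CPM in the wild type, so the groups nearly met but did not overlap. For the colon it was 182, 260, 459, 516 and 1439 CPM against 587, 714, 1652 and 2749 CPM, with mouse 7 inside the wild-type range. The knockout small intestine of mouse 7, lowest in neuronal markers, was highest in glial markers (31649 CPM), and the knockout colon of mouse 20 was lowest in both (182 and 3129 CPM). The count of neuronal genes depended on the libraries used. Without the mice numbered 10 and below, 8 of 12 reached an unadjusted p under 0.05 in the colon, all of them lower, against 1 with those mice, while the share of all genes in either direction went from 4.22 to 7.91%. Without the colon of mouse 7 alone, 6 of 12 did so (4.11% of all genes) and the median was −1.62. Without mouse 20 the average held 6 in place of 9 (5.21% of all genes). The part of cell composition in these differences was not tested.

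In the LPS-treated mice the same 12 genes had a median log2 fold change between genotypes of −0.31 in the small intestine, 9 being negative and 0 at an unadjusted p under 0.05. In the colon the median was 0.31, with 5 negative and 1, Vip, at an unadjusted p under 0.05. The background shares in that direction were 3.06% and 7.69%.

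Glial genes themselves did not pass in either region. Of the 21 markers of enteric glial identity, 16 had positive log2 fold changes in the small intestine (median 0.70) and 19 in the colon (median 0.50). In either region 0 of them reached an unadjusted p under 0.05, where 1.72% and 4.22% of all genes did so. Sox10, the transcription factor of the glial lineage, stood at 281, 121, 136 and 984 CPM in the knockout small intestine against 98.2 to 562 CPM (median 119) in the wild type. The colon libraries stood at 112, 182, 858, 40.9 and 282 CPM against 167, 129, 160.5 and 246 CPM. The groups overlapped in both regions, with mouse 7 the highest knockout of the small intestine and mouse 1 of the colon. On the log2 scale Sox10 differed by 0.87 ± 0.75 and 0.75 ± 0.80. S100b, a calcium-binding glial protein, differed by −0.14 ± 0.64 and 0.11 ± 0.66, and Gfap, the intermediate filament of reactive glia, by −0.32 ± 0.63 and 0.59 ± 0.66. In the colon, Sox10, S100b and Gfap turned negative without the mice numbered 10 and below. Myelin genes gave 0 of 13 tested at an unadjusted p under 0.05 in either region, with medians of 0.63 and 0.55. At the shares over all genes, lists this short may hold 0 whether or not their genes differ.

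**Figure D5:**
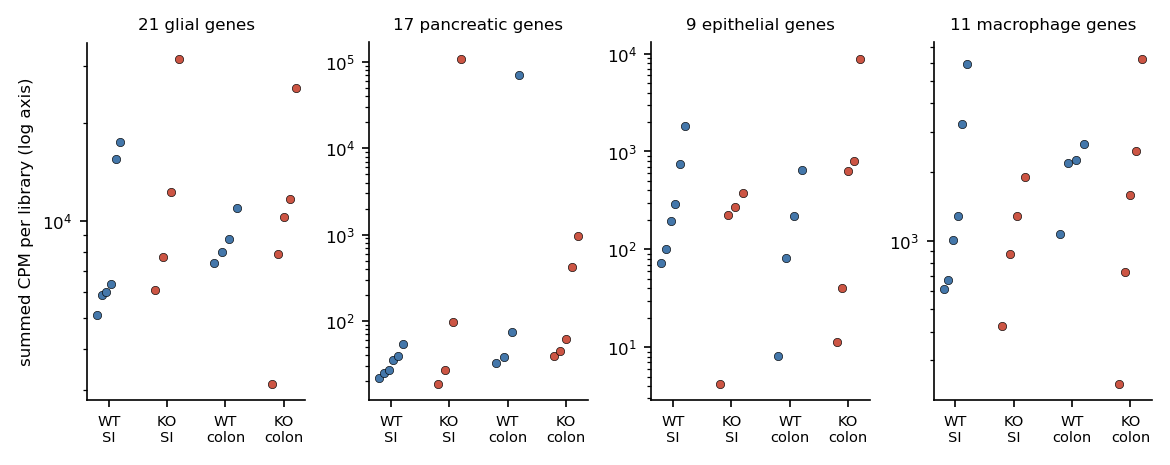
Summed CPM (y axis, log scale) of glial, pancreatic, epithelial and macrophage marker genes in each PBS library, by genotype and region (x axis); each point is 1 library. Glial sums overlap between the genotypes in both regions, and the pancreatic sums of 108460 and 71039 CPM and the epithelial sum of 8864 CPM stand apart from the other libraries.

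The receptor's relatives and proposed partners did not differ by a called amount. Gpr37l1, its paralog, stood at 848, 388, 434 and 3770 CPM in the knockout small intestine and at 312 to 1378 CPM (median 345) in the wild type, with mouse 7 far above the rest. Gpr37l1 differed on the log2 scale by 1.21 ± 0.66 for the small intestine and 0.93 ± 0.71 for the colon (edgeR unadjusted p = 0.0742 and 0.199). Psap, which encodes prosaposin, differed by 0.24 ± 0.22 and −0.28 ± 0.23 (unadjusted p = 0.301 and 0.239). Of 11 tested genes of the list of Gpr37 partners, which holds Gpr37 itself, inhibitory G protein subunits, parkin, the Wnt co-receptor Lrp6 and prosaposin receptors, Gpr37 was the one at an unadjusted p under 0.05 in either region. In the average, Sort1, the sortilin receptor that binds prosaposin, was at 0.85 ± 0.37 (limma-voom unadjusted p = 0.0268, adjusted p = 0.999).

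Among the members of the reactive-astrocyte and cytokine lists edgeR called none before endotoxin. Of these members DESeq2 called Aspg, an asparaginase, lower in the small intestine (adjusted p = 4.36e-07) and Csf3, a granulocyte growth factor, lower in the colon (adjusted p = 3.7e-24). Without mouse 14, which held all 268 counts of Csf3 in the colon, its log2 fold change was 0. Aspg averaged 0.53 on the log2 CPM scale, and its groups overlapped in the small intestine. There edgeR gave Aspg a log2 fold change of −5.40 ± 2.57 (unadjusted p = 0.0438). Leaving out 1 wild-type library raised that p to 0.0937. For the small intestine, 3 of 34 reactive-astrocyte genes were higher at an unadjusted p under 0.05 (0.691% of all genes) and 1 lower (1.03%), with a median of 0.20. In the colon, 0 were higher (2.44%) and 2 lower (1.78%), with a median of −0.37 and 29 of 34 negative. Lcn2, the acute-phase siderophore-binding protein, was among them in both regions with opposite signs. It stood at 138, 28.5, 9.12 and 1.72 CPM in the knockout small intestine against 0.721 to 23.8 CPM (median 12.8), a log2 fold change of 1.83 ± 0.87 (edgeR unadjusted p = 0.0421). Colon libraries stood at 124, 121, 5.22, 60.1 and 49.4 CPM against 1172, 81.5, 218 and 230 CPM, a log2 fold change of −2.57 ± 0.93 (edgeR unadjusted p = 0.00943). The groups overlapped in both regions, and the test of the difference between regions gave an unadjusted p of 0.00149 in edgeR, which called 0 genes, and an adjusted p of 0.0316 in DESeq2. Single libraries carried both values: the difference was 0.055 in the small intestine without mouse 12 (edgeR unadjusted p = 0.95) and −1.30 in the colon without mouse 14 (edgeR unadjusted p = 0.168).

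Timp1, a metalloproteinase inhibitor, stood at 56.5, 35.4, 14.0 and 19.6 CPM in the knockout small intestine against 11.3 to 17.7 CPM (median 16.1), with mice 12 and 15 the highest. Without mouse 12 its log2 fold change was 0.58 (edgeR unadjusted p = 0.288). Ptx3, a secreted pentraxin, stood at 0 to 5.18 CPM in the knockout colon against 71.5, 2.38, 3.30 and 3.47 CPM, so mouse 14 set most of its log2 fold change of −3.80 ± 1.40, which was −1.06 without that mouse. Interferon-stimulated genes gave 0 of 27 in both regions, with medians of 0.20 and −0.29. Genes of the unfolded protein response gave 0 of 14 (medians 0.32 and 0.01), and immediate early genes gave 0 of 14 (0.20 and 0.15). Genes through which glia signal to neurons, such as growth factors, connexins and purine receptors, gave 0 of 15 (0.14 and 0.09). Of 20 cytokine and NF-kB feedback genes, 0 were at an unadjusted p under 0.05 for the small intestine (1.72% of all genes) and 1 for the colon, lower (1.78%), with medians of −0.09 and −0.21.

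In the colon, the genes of smallest p were taken among those averaging 3 or more on the log2 CPM scale whose groups did not overlap (0.51% of all genes higher, 0.866% lower). None passed in edgeR. DESeq2, run on the same counts, called 2 of the 10 higher and 8 of the 10 lower ones, against 74 of all 14903 genes. These genes were chosen by their values in these libraries, so the DESeq2 calls are no separate evidence. On the higher side the genes of smallest p began with Hat1, a histone acetyltransferase that acts on newly made histone H4. Hat1 stood at 35.6, 40.5, 38.5, 48.8 and 40.6 CPM in the knockout colon against 19.4, 29.3, 24.5 and 15.3 CPM. Hat1 differed on the log2 scale by 0.88 ± 0.19 (edgeR unadjusted p = 7.36e-05, adjusted p = 0.434; DESeq2 adjusted p = 0.000295). In the small intestine Hat1 differed by −0.18 ± 0.18, and the difference between regions had an unadjusted p of 0.000371 in edgeR, which called 0 genes, and an adjusted p of 0.00221 in DESeq2. Erbb2, a receptor tyrosine kinase that pairs with the neuregulin receptor Erbb3 in glia, stood at 62.8, 35.3, 84.0, 71.5 and 158 CPM against 32.1, 32.7, 16.4 and 14.3 CPM. Erbb2 differed by 1.79 ± 0.47 (edgeR unadjusted p = 0.000578; DESeq2 adjusted p = 0.0143).

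The higher side of the colon also held Il18, a cytokine of the interleukin-1 family (3.49 ± 1.18). Il18 stood at 7.53, 9.27, 9.23, 154 and 21.0 CPM in the knockout against 2.79 to 3.86 CPM, and its highest value came from mouse 20, the library with epithelial markers at 8864 CPM. Without that library the Il18 difference was 1.73 (edgeR unadjusted p = 0.107). Lgals3, galectin-3, stood at 114, 102, 121, 1052 and 192 CPM against 89.4, 57.6, 58.3 and 69.9 CPM, again highest in mouse 20, and differed by 0.96 without it (edgeR unadjusted p = 0.210). Mast2 (1.19), Arih1 (0.75), Samd11 (1.05), Cyth2 (0.57) and Impdh2 (0.56) were also among the 10. Cyth2 encodes a cytohesin, an exchange factor for ARF GTPases, and stood at 52.7 to 76.3 CPM in the knockout colon against 34.3 to 45.3 CPM.

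The lower side of the colon was led by Fstl5 and Arf5. Fstl5, a secreted follistatin-like protein, stood at 0.519, 1.16, 0, 0 and 0 CPM in the knockout against 19.6, 4.99, 5.27 and 12.9 CPM. Its log2 fold change was −4.89 ± 1.09 (edgeR unadjusted p = 8.7e-05, adjusted p = 0.434; DESeq2 adjusted p = 0.000155). Htr3b, a subunit of the serotonin-gated channel, stood at 0 CPM in 4 knockout libraries and 0.267 CPM in mouse 15 against 7.39, 1.70, 9.90 and 1.25 CPM. Its 3 knockout and 371 wild-type counts gave a ratio of 93.7 (exact 95% interval 31.8 to 457, counting error only), and all 3 came from mouse 15. Syngr3, a synaptic vesicle protein, stood at 0.957 to 12.6 CPM against 15.0 to 57.0 CPM, and Chrnb2, a neuronal nicotinic receptor subunit, at 6.43 to 8.79 CPM against 8.96 to 20.4 CPM. Slc18a3 is described above. The others were the interferon-inducible Ubd (−4.26) and Gbp10 (−2.69), Ica1l (−2.31) and the epithelial surface gene Plet1, with 1 knockout and 131 wild-type counts (ratio 99.3, exact 95% interval 17.5 to 3952, counting error only). Ubd was −2.80 without the wild-type colon of mouse 14 (edgeR unadjusted p = 0.0284). The summed neuronal markers, which overlapped between the groups, lay lower in these same knockout libraries, and their part in the values of Slc18a3, Htr3b, Syngr3 and Chrnb2 was not tested.

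In the small intestine, the corresponding genes of smallest p (0.517% of all genes higher without overlap, 0.678% lower) were led on the higher side by Casp9, the initiator caspase of the mitochondrial pathway. Casp9 stood at 1710 CPM in the knockout small intestine of mouse 20 and at 22.3 to 32.0 CPM in the other 3 knockouts, against 5.43 to 22.2 CPM in the wild type. In the wild-type colon of mouse 19 it stood at 1208 CPM. These are the 2 libraries with pancreatic enzyme genes, and in RefSeq Casp9 (chr4:141793612-141815978) overlaps the pancreatic elastase gene Cela2a (chr4:141814954-141826005). Whether reads of Cela2a were counted for Casp9 cannot be told from the counts, so its value is uncertain. The 17 pancreatic genes, listed after their values were seen, were all higher in the small intestine and all lower in the colon, with medians of 11.9 and −5.98, which the same 2 libraries set.

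Gpr108 came next, and then Aup1, a protein of endoplasmic reticulum quality control (0.47 ± 0.19, unadjusted p = 0.0194). Srpr (0.35), the receptor of the signal recognition particle, and Stt3a (0.57), a catalytic subunit of the oligosaccharyltransferase, were among the 10 as well. The others were Rpa2 (0.72), Susd6 (0.72), Lrp10 (0.36), Med15 (0.54) and Prr14 (0.60). Rpa2, a subunit of the single-strand DNA-binding complex, stood at 32.1 to 40.7 CPM in the knockout against 12.2 to 28.4 CPM (median 23.1). In the colon, Aup1 differed by 0.20, Srpr by −0.22 and Stt3a by −0.23.

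The lower side of the small intestine was also led by Arf5. Calb2, the calcium-binding protein calretinin of enteric neurons, stood at 45.9, 63.2, 45.5 and 1.98 CPM in the knockout against 87.0 to 184 CPM, median 158 (−1.88 ± 0.86, edgeR unadjusted p = 0.0362). Gap43, a growth-cone protein, stood at 98.8, 77.6, 96.9 and 51.3 CPM against 120 to 229 CPM, median 175 (−1.12 ± 0.53, edgeR unadjusted p = 0.0427). Klc1, a kinesin light chain that carries axonal cargo, stood at 173 to 254 CPM against 286 to 414 CPM, median 337 (−0.65 ± 0.31). Mouse 7 was the lowest knockout for each of the 3. Snrpn stood at 159, 156, 128 and 74.5 CPM against 181 to 330 CPM, median 252 (−1.02 ± 0.46). Snurf, encoded by the same transcript, gave −1.01 and is not independent of it. The remaining genes were Tmem54 (−5.25), Ciapin1 (−0.67), Lrrc14 (−0.68) and Serp2 (−1.41).

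Genes with an unadjusted p under 0.05 in the same direction in both regions numbered 10 on the higher side (0.0671%) and 5 on the lower side (0.0336%). Of these, Tmem176a, Tspan15, Pyy and Arf5 averaged 3 or more on the log2 CPM scale. Tmem176a, a membrane protein related to the MS4A family, stood at 739, 426, 346 and 794 CPM in the knockout small intestine against 329 to 404 CPM (median 375), and at 257, 222, 391, 423 and 315 CPM against 236, 212, 198 and 195 CPM in the colon. Its log2 fold change was 0.63 ± 0.25 and 0.61 ± 0.26, and 1 knockout library per region lay inside the wild-type range. Tspan15, a tetraspanin partner of the protease ADAM10, differed by 0.94 ± 0.45 and 1.05 ± 0.48, with overlap in both regions. Without mouse 7 the small intestine value of Tspan15 was 0.14 (edgeR unadjusted p = 0.762) and that of Tmem176a was 0.41 (edgeR unadjusted p = 0.129). In the colon Tspan15 was 0.70 without mouse 7 (edgeR unadjusted p = 0.154). Tmem176a was 0.50 there without mouse 20 (edgeR unadjusted p = 0.0704). Pyy, a gut hormone of endocrine cells, was at 0 in every PBS library but those of mouse 20, which held 582 CPM (small intestine) and 169 CPM (colon), so its difference is that of 1 mouse.

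The genes named by smallest p were also compared between the genotypes in the LPS-treated mice. On the higher side, 6 of 10 genes of the small intestine and 3 of 10 of the colon had the same sign, and 1 (Casp9) and 0 of them reached an unadjusted p under 0.05, where 4.57% and 8.74% of all genes did so in that direction. On the lower side, 8 of 10 and 7 of 10 had the same sign. Arf5 in the small intestine, and Arf5 and Plet1 in the colon, reached an unadjusted p under 0.05, where 3.06% and 7.69% of all genes did so in that direction.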

How the data were processed

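RNA was extracted with RNeasy Plus Micro columns and libraries were made with Smart-seq2, per the labels' protocols. The submitters' processing notes name Trim Galore 0.4.4, STAR 2.5.3, DESeq2 and the build GRCm38, without roles; the counter, the annotation and the use of strand are not given in the sources used here. The authors deposited raw counts per gene symbol for the 24 h experiment, 21076 symbols in 37 columns, all used as deposited (25 symbols read as dates and name no gene). Each column was matched to 1 sample by its name, and 0 columns were left unmatched. Groups and mouse numbers come from the labels.

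Genes were filtered with filterByExpr (14903 kept) and scaled by TMM. edgeR 4.0.16 (R 4.3.3) fitted all 37 libraries in 8 groups with a quasi-likelihood model. The average over regions used limma 3.58.1 with voom and the mouse as a block (estimated correlation 0.139). DESeq2 1.42.0 was an alternative. Tests were two-sided, with Benjamini-Hochberg adjustment over all genes and a threshold of 0.05. edgeR standard errors are the absolute log2 fold change over the root of F. The exact permutation tests over the LPS mice used scipy 1.17.1. The members, gene lists and alternatives were chosen with earlier results of these data known. Named genes are Gpr37, its relatives and glial markers, every called gene, up to 10 per direction and region with the smallest unadjusted p (average log2 CPM of at least 3, no overlap, no predicted gene), genes under 0.05 in both regions, up to 4 per list, and the tested neighbours of Gpr37; some of these genes are not reported here. The fits were tested on simulated data. Positions come from RefSeq on GRCm38.p6, where 14670 of the tested symbols matched.

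The replicate numbers of the titles recur in both genotypes. In the small intestine the 4 same-numbered pairs deviated together (r from 0.122 to 0.235 over genes, against a mean of −0.0307 for other pairs). They were taken as pairs there in an alternative fit, although the labels state no pairing. The main values come from the fit without the block. With the 2 groups alone edgeR called 1 gene, Gpr37, and with the block 0. Replicates differed beyond sampling noise in all 37 pairs compared (chi-square over its degrees of freedom 23 to 397), so none was counted as a duplicate. Alternatives were scaling, filter, tool, sex, the libraries fitted, the mice numbered 10 and below, the block and each library left out.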

Additional observations from a re-analysis of the deposited data

Results flagged for a closer look

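In 64 groups of 4 to 6 libraries, 10 held 1 library whose gap to its nearest neighbour was large for the group's range. Chance alone flags about 1 group in 20 when groups are independent and chosen beforehand. Here the same libraries recur across groups, and the pancreatic genes were listed after their values were seen. Mouse 7 was such a library in the knockout small intestine, with Arf5 at 56.5 CPM and Gpr37l1 at 3770 CPM, and in the knockout colon, with summed neuronal markers at 1439 CPM. Mouse 1 was one in the knockout colon, with summed myelin genes at 3596 CPM. Mouse 9 was one in the wild-type small intestine, with Sox10 at 562 CPM. Gpr37 stood apart at 0.802 CPM in the knockout colon of mouse 15 and at 13.3 CPM in the wild-type colon of mouse 14. Mouse 20 stood apart in both regions, with pancreatic enzyme genes at 108460 CPM in the small intestine and epithelial markers at 8864 CPM in the colon, and the wild-type colon of mouse 19 did so with pancreatic enzyme genes at 71039 CPM. The parts that depth, dissection or cell composition play in these values were not tested.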

How the results depend on the processing

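edgeR called 0 genes in each region and in the interaction under every alternative tried but these: fitting the 2 groups alone called 1 in the small intestine (Gpr37, −6.99), and DESeq2 called 58, 74 and 89 in the small intestine, colon and interaction (Gpr37 at −7.16 and −4.79). Leaving out 1 library gave 0 to 0 calls in each region and in the interaction. The average called 2 to 3 genes under all alternatives run for it, Gpr37 and Arf5 each time, 2 with no replicate block, and the interaction with the mouse as a replicate block gave 0. In the colon the title numbers did not pair the libraries (r from 0.0194 to 0.207). The replicate block there gave 0 calls. It put 7 of 12 neuronal genes at an unadjusted p under 0.05, all lower, where 3% of all genes were in either direction. In the small intestine the block gave 0 calls, without the Gpr37 call of the 2 groups alone, and it changed no other call. At an unadjusted p under 0.05, the small intestine had 256 genes, against 580 with no filter, 91 with the stricter filter, 592 with the 2 groups alone, 747 with the block, 427 with the PBS groups alone and 460 without the mice numbered 10 and below; the colon had 629, against 989, 304, 311, 396, 849 and 1213. In the small intestine 7 of 12 neuronal genes were lower at that p with the 2 groups alone (4.33% of all genes). With the block 3 were (5.47%), against 0 in the main fit (1.72%). In the colon 5 were lower with the low-numbered mice as a covariate (4.3% of all genes), against 1 in the main fit (4.22%). These shares hold both directions. The signs of some single genes turned. With the replicate block, S100b was 0.13 and Tmem229a −0.48 in the small intestine, and Elavl3 −1.22, Gfap −0.14, S100b −0.25 and Sox10 −0.066 in the colon. Without the mice numbered 10 and below the colon gave Elavl3 −1.95, Gfap −0.21, Gpr37l1 −0.18, Grm8 0, S100b −0.69 and Sox10 −0.68; with them as a covariate, Elavl3 −0.16, Gfap −0.073, Grm8 −1.09, S100b −0.0017 and Tmem229a 0.025, and Tmem229a −0.53 in the small intestine. Chosen after seeing the data, like the fits without mouse 3 or the low-Gpr37 libraries, leaving out the 2 pancreatic libraries gave Pyy 0 and Tmem229a −0.54 in the small intestine and Casp9 0.50, Elavl3 −0.014 and S100b −0.00038 in the colon, and leaving out mouse 20 gave Pyy 0 in both regions and Tmem229a −0.56 in the small intestine. With 1 library left out, signs turned in the small intestine for Gpr37l1 (−0.10 to 1.67), Grm8 (−1.75 to 1.11), Pot1a (−0.25 to 0.0059), S100b (−0.52 to 0.20), Sox10 (−0.24 to 1.46) and Tmem229a (−0.54 to 0.59), and in the colon for Casp9 (−4.05 to 0.50), Elavl3 (−1.64 to 0.84), S100b (−0.41 to 0.37) and Sox10 (−0.19 to 1.04). Values went to 0 for Pyy (0 to 13.8 in the small intestine, 0 to 11.7 in the colon) and for Csf3 in the colon (−9.63 to 0), where 1 mouse held all counts of the region. The cause of the sign changes was not tested. Over all alternatives in the PBS mice, Arf5 lay between −1.42 and −1.18, −1.55 and −1.08, and −1.43 and −1.26 in the small intestine, colon and average, and Gpr37 between −7.40 and −6.65 and between −6.78 and −3.99 in the 2 regions. Depth limits low genes: a count of 3 is worth up to 0.779 CPM.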
